A study of Mus musculus with 9 samples.

Results

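The 35 genes described here encode the machinery of DNA replication and the regulators of entry into S phase, measured by RNA sequencing in mouse mammary tumors with and without HSP72. They were taken from a fixed list of symbols, and all 35 were found among the 55401 mouse gene identifiers of the count table. HSP72 is the stress-inducible HSP70 chaperone encoded by Hspa1a and Hspa1b. The WT group was 4 libraries from tumors of female Hspa1a/Hspa1b+/+ mice aged 122 to 132 days, and the KO group was 5 libraries from tumors of female Hspa1a/Hspa1b-/- mice aged 120 to 125 days. Both groups were of the strain C57BL/6 MUC1.Tg MMTV-PyMT, so controls and knockouts alike carried a human MUC1 transgene and the polyoma middle T oncogene under the mammary tumor virus promoter, which is active mainly in mammary epithelium. The question was whether replication transcripts differed between tumors that had and lacked the chaperone. The labels do not say whether each library came from a separate animal. Within a genotype only WT 3 and WT 4, at 124 days, and KO 3 and KO 5, at 120 days, shared an age. The p-values reflect only the scatter among these 9 libraries, which may in part be technical.

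Replication starts from origins that are licensed in G1, when CDC6 and CDT1 help to load the MCM helicase onto DNA. In S phase the helicase is activated by CDC45 and GINS, primase and the replicative polymerases copy the strands, the sliding clamp PCNA is placed by the RFC loader, and FEN1 and ligase 1 join the Okazaki fragments. Most of these genes are transcribed in a wave late in G1, when cyclin E and its kinase help to release E2F factors from RB proteins. In a bulk tumor sample their transcripts are therefore widely used as a readout of cycling cells.

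Libraries held 4410399 to 6221181 fragments counted on genes, and the counts of the replication genes ranged from 7 to 554 per gene and library. Levels are given as CPM, counts scaled to a common library total with TMM factors, and differences as log2 fold changes of KO against WT from edgeR's quasi-likelihood test, fitted over 14665 genes. As a check of the labels, Hspa1b stood at 28.8 to 81.1 CPM in the WT libraries and 0 to 0.657 CPM in the KO libraries. Hspa1a stood at 3.99 to 9.77 CPM in WT and 0.163 to 1.64 CPM in KO. All 13 luminal epithelial markers had counts in every library, with a mean log2 CPM of 7.35 to 8.79 in WT and 7.49 to 8.15 in KO.

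No replication gene differed between KO and WT tumors past the threshold of an adjusted p under 0.05. The smallest edgeR adjusted p among the 35 was 0.616. Of all genes tested 0.0886% were called, 0.0546% with a higher and 0.0341% with a lower mean in KO. At an unadjusted p under 0.05 there were 5 genes, E2f8, E2f1, Pole, Chaf1a and Uhrf1, each with a higher mean in KO, and none with a lower one. They were 14.3% of the 35. Of all genes tested 7.95% had an unadjusted p under 0.05, 3.36% with a higher mean in KO and 4.59% with a lower one. DESeq2 and limma-voom likewise called none of the 35, with 4 and 1 of them at an unadjusted p under 0.05.

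Most of the differences were small and positive. The log2 fold change was above 0 for 30 of the 35 genes, where 50% of all genes tested lay above 0, and it ran from -0.30 for Fen1 to 0.64 for E2f8. The median was 0.17, against a median of -8e-05 over all genes tested. With library totals in place of TMM factors, 34 of 35 lay above 0, but the median over all genes tested then rose to 0.060. With limma-voom 27 lay above 0, at a median of 0.074. Without WT 4 it was 25 of 35. For 30 genes the 95% interval held 0, and for 32 it lay within 1 log2 unit of 0 on both sides. These genes vary together from library to library, so the count of 30 is not a count of independent observations. The WT and KO libraries overlapped for all 35 genes. Of all genes tested 1.44% had every KO library above every WT library and 1.26% every KO library below. At such shares few or none of 35 genes would be without overlap, so this does not set the list apart.

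**Figure D1:**
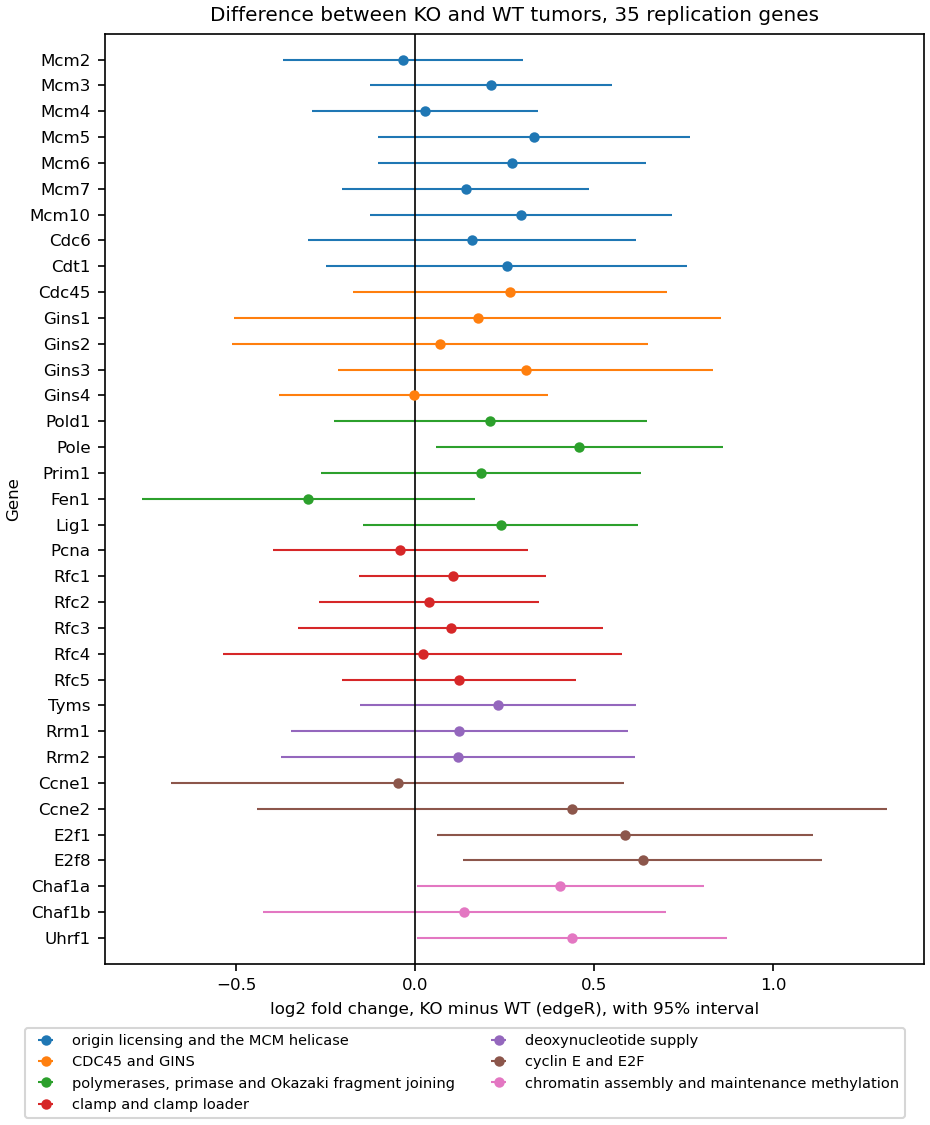
Log2 fold change of KO against WT (x axis) for the 35 replication genes (y axis, colored by role), with the edgeR estimate as a point and its 95% interval as a line. Intervals of 30 genes cross 0, and those of E2f8, E2f1, Pole, Chaf1a and Uhrf1 lie just above it.

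The range over the libraries of each genotype was wider than the difference between the group means. A range is not a like measure, and the difference was no smaller than the SD of either group. The mean log2 CPM over the 35 genes was 4.01, 3.81, 4.14 and 3.72 in WT 1 to WT 4 and 3.99, 3.99, 4.22, 4.29 and 4.09 in KO 1 to KO 5. WT 2 and WT 4 lay below all KO libraries, while WT 1 and WT 3 lay within their range. The group means of 3.92 ± 0.190 in WT (SD, n = 4) and 4.12 ± 0.133 in KO (SD, n = 5) differed by 0.20, against a range of 0.42 among the WT libraries and 0.30 among the KO libraries. WT 4 was the lowest of the 9 libraries for 16 of the 35 genes, WT 1 for 7 and WT 2 for 6, where they were lowest for 12.6%, 21.4% and 11.6% of all genes tested. KO 4 was the highest for 16 and KO 3 for 8, where each of these libraries was highest for 10.4% and 18.6% of all genes tested.

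**Figure D2:**
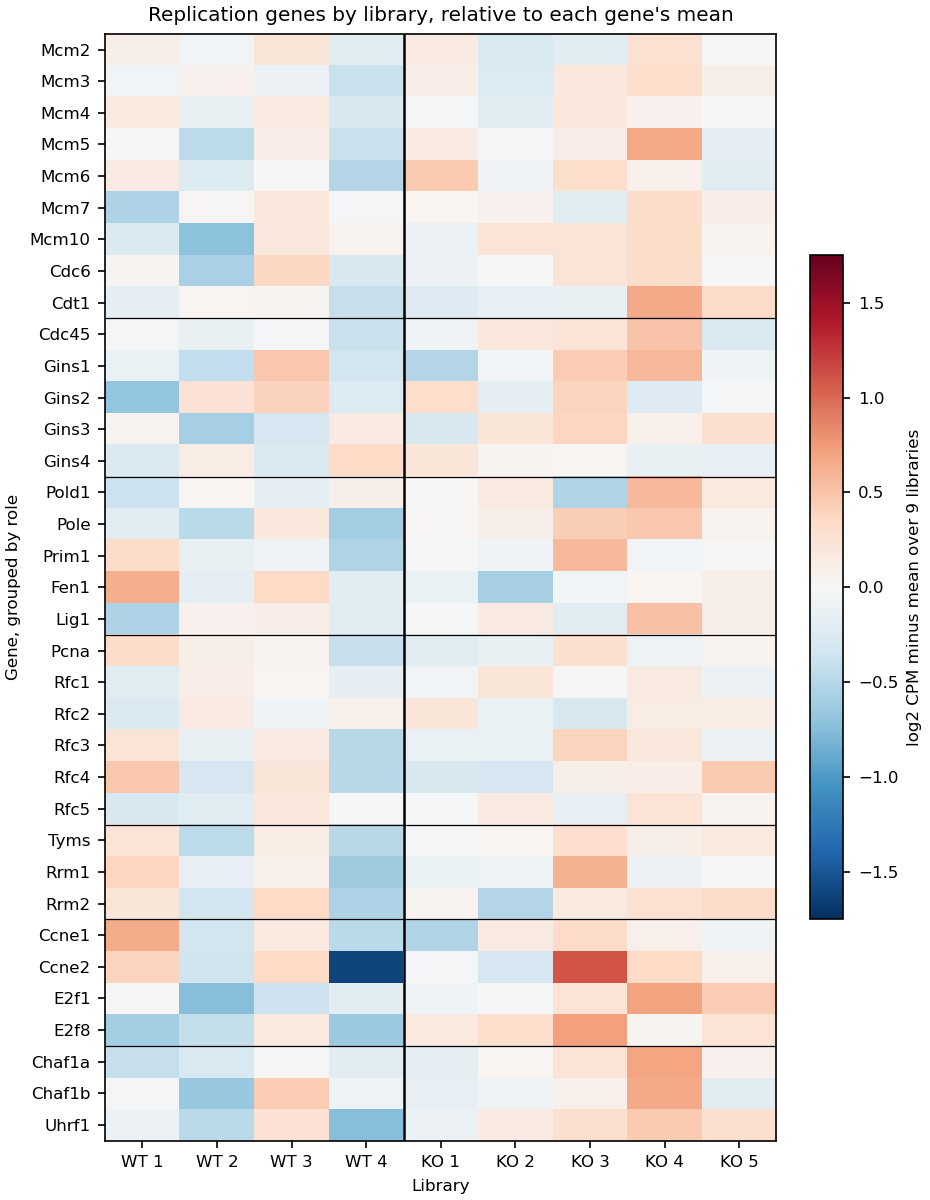
Log2 CPM of each replication gene (rows, grouped by role) in each library (columns, WT left of the line and KO right), minus the gene's mean over the 9 libraries. WT 4 is lowest for 16 genes and KO 4 highest for 16, and both genotypes contain libraries with red and blue rows.

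Other features also differed between libraries or between genotypes, and the unmapped share did not follow the replication levels in every library. Unmapped fragments took 21.1% and 27.1% of WT 2 and WT 4, against 12.2% and 15.2% of WT 1 and WT 3 and 10.99% to 21.8% of the KO libraries. KO 4 combined the highest mean level of the replication genes with an unmapped share of 21.8%, and KO 3 combined the next highest with the lowest share. Fibroblast markers had a median log2 fold change of -0.71 (9 of 10 below 0), endothelial markers -0.82 (9 of 9), macrophage markers -0.62 (10 of 10) and luminal markers -0.45 (11 of 13). The summed level of the 10 fibroblast markers was 762 to 1054 CPM in WT and 303 to 649 CPM in KO. That of the 10 macrophage markers was 491 to 795 CPM in WT and 255 to 652 CPM in KO, and that of the 9 endothelial markers 51.8 to 157 CPM in WT and 27.5 to 71.1 CPM in KO. No gene of these 3 lists was at 0 in any library. Milk protein genes had the largest median difference of the marker lists, -3.32 (7 of 7 tested below 0). Their mean log2 CPM was 9.21 and 9.28 in WT 1 and WT 4, 4.27 and 5.50 in WT 2 and WT 3, and 3.95 to 5.47 in KO. In bulk samples fewer cells of a type and less RNA per cell cannot be told apart, and the part of cell makeup and of the unmapped share in the replication levels was not tested.

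The MCM helicase and its loading factors showed the overall pattern of small positive differences. The log2 fold change was above 0 for 8 of these 9 genes, with a median of 0.21, and none had an unadjusted p under 0.05. With library totals in place of TMM all 9 lay above 0, where the median over all genes tested was 0.060. Mcm6 (ENSMUSG00000026355.11, chromosome 1, 128331590 to 128359664, GRCm38), a core helicase subunit, stood at 52.6, 40.3, 47.9 and 33.4 CPM in WT 1 to WT 4 and at 65.2, 45.6, 59.1, 50.7 and 42.1 CPM in KO 1 to KO 5. KO 1 and KO 3 exceeded every WT library, and the other KO libraries fell among them. Its log2 fold change was 0.27 ± 0.17 (SE; edgeR adjusted p = 0.697).

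Mcm5 (ENSMUSG00000005410.6, chromosome 8, 75109569 to 75128439), another core subunit, stood at 21.9, 15.9, 23.6 and 16.6 CPM in WT and 24.0, 21.2, 23.5, 34.7 and 19.5 CPM in KO. KO 4 alone was well above the WT libraries. Its log2 fold change of 0.33 ± 0.20 (SE) was 0.17 without KO 4. The remaining core subunits Mcm2, Mcm3, Mcm4 and Mcm7 had log2 fold changes of -0.034, 0.21, 0.027 and 0.14. These subunits assemble into a ring, and their levels varied separately in WT 1. There Mcm7 was at its lowest, 43.7 CPM against 55.8 to 79.1 CPM elsewhere, whereas Mcm4 at 24.4 CPM was near its highest. GC content was 53.4% for Mcm7 and 45.5% for Mcm4. Over all genes tested, GC-richer genes stood lower relative to GC-poorer ones in WT 1 and KO 3 than in the other libraries. The part of base composition in the Mcm7 and Mcm4 levels was not tested. Exons of Mcm7 hold the microRNA genes Mir25 and Mir93 and overlap Ap4m1 and Cops6 on the other strand, over 12.6% of its exon bases in all.

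Mcm10, which helps to activate the loaded helicase, had a mean of 14.6 ± 3.76 CPM over the 4 WT libraries and 17.95 ± 2.08 CPM over the 5 KO libraries (SD). The loading factors Cdc6 and Cdt1 stood at 7.11 to 13.6 and 6.94 to 9.47 CPM in WT and at 9.85 to 13.2 and 7.88 to 14.6 CPM in KO. Both ranges overlap, and the log2 fold changes were 0.16 ± 0.21 and 0.26 ± 0.23 (SE). With 1 library left out that of Cdc6 ran from 0.020 without WT 2 to 0.35 without WT 3, and that of Cdt1 from 0.081 without KO 4 to 0.33 without KO 1. Per length of exons, Mcm7 and Mcm6 were the most abundant of the helicase genes at 14.5 and 10.4 CPM per kilobase over the 9 libraries, and Cdc6 and Mcm10 the least at 2.06 and 2.14.

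A short E2F-type promoter motif was more frequent among the replication genes than among all genes, though most replication genes with a window lacked it. The list was chosen by function and holds genes of the E2F-driven wave, so this frequency is not independent of the choice. RefSeq promoter windows of build GRCm38.p6, 250 bases before to 50 after a start, were found for 28 of the 35 genes. They were searched on both strands for the E2F-type words TTTCCCGC, TTTCGCGC, TTTGCCGC and TTTGGCGC. At least 1 word was present for 11 of the 28 genes (Cdc6, Cdt1, Gins3, Lig1, Mcm3, Mcm5, Mcm6, Mcm7, Pold1, Rfc3 and Uhrf1). By window it was 33.3% of 33 windows, against 2.26% of all 32851 windows. CCAAT, bound by NF-Y, was in 57.6% of the windows of these genes and 37.4% of all, and TTTGAA, the core of the CHR element of late cell-cycle genes, in 15.2% and 17.9%. The 11 genes with an E2F-type word had a median log2 fold change of 0.24, the 17 with a window and no word 0.12, and the 7 without a window 0.069. In the same order the values ran from 0.099 to 0.44, from -0.30 to 0.64 and from -0.0048 to 0.46. The range without a word thus enclosed the others, and it held E2f8 and E2f1, the largest differences of the list. The medians were not tested against each other. A match describes the letters and is not evidence of binding. The 170 bases before the RefSeq start of Mcm6 (chr1:128359706-128359875, minus strand) and Mcm5 (chr8:75109339-75109508, plus strand) are shown because they hold 3 and 2 overlapping or neighbouring words and no annotated exon. Capitals mark the E2F-type words on either strand.
Mcm6: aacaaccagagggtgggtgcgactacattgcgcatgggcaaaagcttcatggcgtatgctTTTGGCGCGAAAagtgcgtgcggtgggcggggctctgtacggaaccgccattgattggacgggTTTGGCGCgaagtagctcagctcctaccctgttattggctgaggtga
Mcm5: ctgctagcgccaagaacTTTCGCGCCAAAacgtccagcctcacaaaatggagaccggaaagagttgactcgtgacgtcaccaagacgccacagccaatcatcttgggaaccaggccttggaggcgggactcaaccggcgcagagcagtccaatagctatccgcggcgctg
In Mcm6 the first and second words overlap at 110 and 106 bases before the start and the third lies at 47 bases. Those of Mcm5 overlap at 153 and 149 bases. The highest library was KO 1 for Mcm6 and KO 4 for Mcm5.

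CDC45 and the 4 GINS subunits, which complete the active helicase, had a median log2 fold change of 0.17, with 4 of 5 above 0 and none at an unadjusted p under 0.05. With library totals or upper quartile factors in place of TMM all 5 lay above 0. The medians over all genes tested were then 0.060 and 0.025. Cdc45 stood at 6.49 to 8.37 CPM in WT and 7.01 to 11.9 CPM in KO, and the log2 fold change was 0.26 ± 0.20 (SE; edgeR adjusted p = 0.735). Gins1, Gins2 and Gins3 had means of 2.43, 5.25 and 3.68 CPM in WT and 2.77, 5.55 and 4.52 CPM in KO, with log2 fold changes of 0.17, 0.069 and 0.31. Gins4 had a mean of 15.4 CPM in both groups (SD 3.26 in WT and 1.60 in KO), with a log2 fold change of -0.0048 and a 95% interval of -0.38 to 0.37. The interval of Gins1, on 9 to 21 counts per library, was wider, from -0.51 to 0.86. Gse1 on the opposite strand shares 67.3% of the exon bases of Gins2, and whether reads were assigned by strand is not stated in any source used here, so the level of Gins2 is uncertain.

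Among the polymerases and the enzymes that finish the lagging strand, Pole and Fen1 lay at opposite ends. Pole (ENSMUSG00000007080.14, chromosome 5, 110286306 to 110337474), the catalytic subunit of the leading-strand polymerase, stood at 23.5, 19.2, 30.4 and 17.5 CPM in WT and 27.0, 28.7, 35.8, 36.8 and 27.9 CPM in KO. Every KO library was above WT 1, WT 2 and WT 4, and WT 3 lay within the KO range. Its log2 fold change was 0.46 ± 0.18 (SE; edgeR unadjusted p = 0.0285, adjusted p = 0.616), with a 95% interval of 0.058 to 0.86. Fen1 (ENSMUSG00000024742.15, chromosome 19, 10199132 to 10204169), the flap endonuclease, stood at 23.7, 13.6, 19.4 and 13.4 CPM in WT and 14.2, 10.3, 14.8, 15.7 and 16.4 CPM in KO. The higher WT mean came from WT 1 and WT 3, the other pair of WT libraries being within the KO range. Its log2 fold change was -0.30 ± 0.21 (SE; edgeR adjusted p = 0.719), and -0.12 without WT 1. It was the only one of the 35 genes with a negative value in the main fit and all 20 alternatives. Genes on the opposite strand, Tmem258 and Gm10143, share 84.2% of its exon bases, so with unknown strand setting its level is uncertain.

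Pold1, the catalytic subunit of polymerase delta, had means of 28.7 ± 4.18 CPM over the WT libraries and 33.2 ± 8.63 CPM over the KO libraries (SD), with KO 4 the highest at 45.3 CPM. Its log2 fold change of 0.21 was 0.064 without KO 4. The primase subunit Prim1 stood at 10.5 to 18.8 CPM in WT and 14.3 to 22.3 CPM in KO, and the ligase gene Lig1 at 31.4 to 49.9 CPM in WT and 40.1 to 65.5 CPM in KO. Their log2 fold changes were 0.18 ± 0.20 and 0.24 ± 0.18 (SE). That of Prim1 was 0.044 without KO 3, 0.056 without WT 4 and 0.34 without WT 1, and that of Lig1 was 0.12 without WT 1 or without KO 4. Only with age as a covariate, where WT 2 at 132 days was the oldest, did Lig1 have an unadjusted p under 0.05, with a log2 fold change of 0.43 (edgeR adjusted p = 0.343).

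The clamp and its loader had the smallest median difference of the 7 groups by role. Pcna, the sliding clamp, stood at 36.1, 30.9, 30.1 and 21.9 CPM in WT and 25.0, 26.6, 35.3, 27.3 and 30.3 CPM in KO. The groups overlapped almost entirely, and the log2 fold change was -0.042 with a 95% interval of -0.40 to 0.31. For Rfc1, the large loader subunit, the values were 67.0 to 84.2 CPM in WT and 72.5 to 90.3 CPM in KO. Rfc1 varied least of all 35 genes, with the highest library 1.35 times the lowest, and its log2 fold change was 0.10 ± 0.12 (SE). The small loader subunits Rfc2, Rfc3, Rfc4 and Rfc5 had log2 fold changes of 0.038, 0.099, 0.021 and 0.12. Over the 6 genes the median was 0.069. The mean log2 CPM of the group was 4.47 ± 0.144 in WT and 4.54 ± 0.0841 in KO (SD). Per length of exons Rfc1 and Pcna stood at 13.0 and 12.2 CPM per kilobase, close to Mcm7.

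Genes of deoxynucleotide supply differed more among libraries of a genotype than between the genotype means. Rrm1 (ENSMUSG00000030978.10, chromosome 7, 102441695 to 102469771), the large subunit of ribonucleotide reductase, stood at 67.7, 47.0, 55.3 and 34.0 CPM in WT and 48.1, 49.2, 80.0, 48.6 and 52.0 CPM in KO. WT 4 was the lowest and KO 3 the highest of the 9 libraries, a 2.35-fold range, while the log2 fold change between genotypes was 0.12 ± 0.21 (SE) and -0.044 without KO 3. Rrm2, the small subunit, ranged over 13.0 to 23.9 CPM in WT and 13.2 to 23.8 CPM in KO. Tyms, the thymidylate synthase, ranged over 15.0 to 24.4 CPM in WT and 20.7 to 25.8 CPM in KO, with a log2 fold change of 0.23 ± 0.18 (SE). WT 2 and WT 4 lay below all KO libraries for Tyms.

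The G1/S regulators E2f8 and E2f1 had the largest differences of the 35. E2f8 (ENSMUSG00000046179.17, chromosome 7, 48866429 to 48881596), an atypical E2F that represses E2F targets late in S phase, stood at 5.58, 6.27, 9.47 and 5.37 CPM in WT. In KO it stood at 9.46, 10.4, 13.8, 8.67 and 9.92 CPM. All KO libraries exceeded WT 1, WT 2 and WT 4, and WT 3 overlapped the lower KO libraries. The log2 fold change was 0.64 ± 0.23 (SE; edgeR unadjusted p = 0.0177, adjusted p = 0.616), with a 95% interval of 0.13 to 1.14. E2f1 (ENSMUSG00000027490.17, chromosome 2, 154559407 to 154569892), an activator of the same targets, stood at 6.75, 3.97, 5.15 and 5.82 CPM in WT and 6.30, 6.52, 7.88, 10.8 and 9.06 CPM in KO. WT 1 lay just above KO 1 and KO 2, and the other WT libraries lay below all KO libraries. E2f1 had a log2 fold change of 0.59 ± 0.24 (SE; edgeR unadjusted p = 0.0320, adjusted p = 0.616).

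Both genes rested on few counts, 19 to 60 per library for E2f1 and 24 to 84 for E2f8. Their log2 fold changes ranged from 0.45 to 0.70 and from 0.51 to 0.86 when 1 library was left out, and stayed above 0 in every alternative that kept them. The E-type cyclins, which activate CDK2 at the start of S phase, gave wide intervals around 0. Ccne1 stood at 2.46 to 5.35 CPM in WT and 2.36 to 4.27 CPM in KO, with a log2 fold change of -0.050. Ccne2 varied most of all 35 genes, with 1.57 CPM in WT 4 and 10.3 CPM in KO 3 at the ends of a 6.60-fold range. Its log2 fold change of 0.44 had a 95% interval of -0.44 to 1.32, the widest of the 35, on 7 to 63 counts per library, and was 0.15 without KO 3.

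Chaf1a and Uhrf1, which act on chromatin behind the fork, completed the 5 genes. Chaf1a (ENSMUSG00000002835.9, chromosome 17, 56040439 to 56072289), the large subunit of the histone chaperone CAF-1, stood at 18.4, 20.1, 24.6 and 21.04 CPM in WT and 21.5, 24.8, 28.6, 39.2 and 25.5 CPM in KO. WT 3 lay above KO 1, and the other KO libraries were above all WT libraries. The log2 fold change of 0.41 ± 0.18 (SE; edgeR unadjusted p = 0.0480, adjusted p = 0.626) was 0.24 without KO 4. Ubxn6 on the opposite strand shares 52.5% of its exon bases, so the level of Chaf1a is uncertain too. Uhrf1 (ENSMUSG00000001228.14, chromosome 17, 56303321 to 56323486), which brings the maintenance methyltransferase DNMT1 to newly copied DNA, stood at 27.9, 21.5, 35.6 and 17.9 CPM in WT. Its KO values were 27.97, 32.9, 36.5, 41.0 and 36.4 CPM. WT 3 was within the KO range and WT 1 just below KO 1, while WT 2 and WT 4 were lower. Uhrf1 had a log2 fold change of 0.44 ± 0.20 (SE; edgeR unadjusted p = 0.0482, adjusted p = 0.626). For Chaf1b, the partner of Chaf1a, the log2 fold change was 0.14 ± 0.26 (SE), and for Dnmt1 it was 0.14 ± 0.16.

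**Figure D3:**
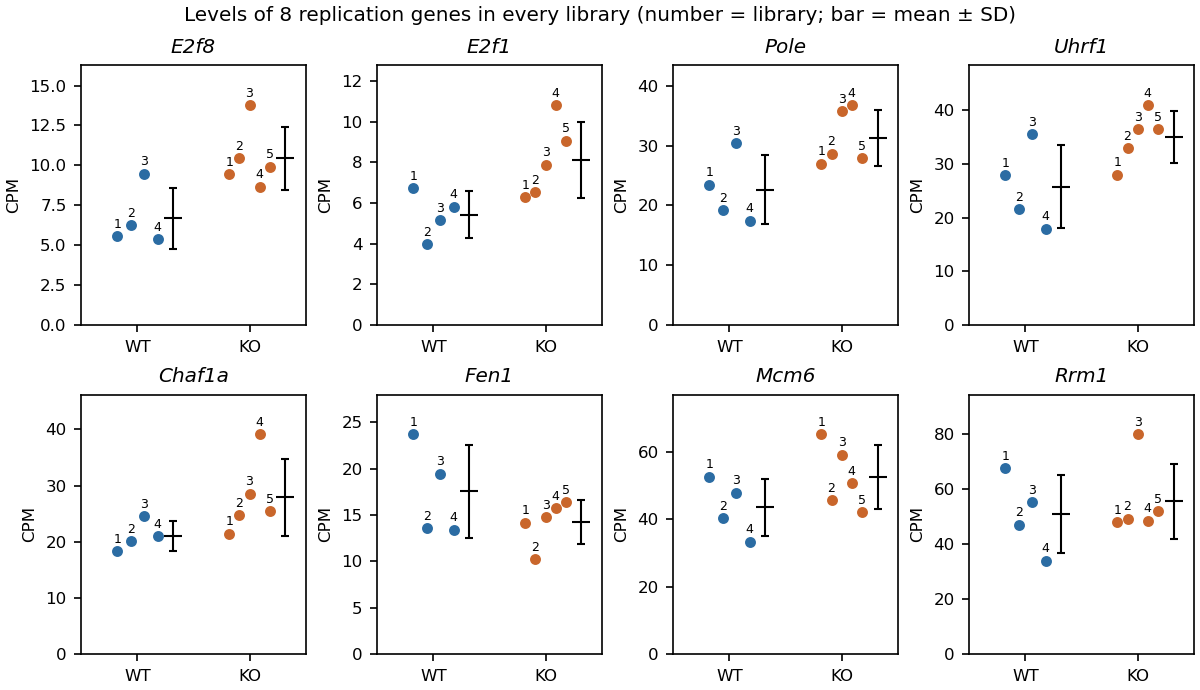
CPM of 8 replication genes (y axis from 0) in each WT and KO library, with the library number above each point and the group mean ± SD (n = 4 and 5) beside it. For E2f8, Pole and Uhrf1 WT 3 lies within the KO range, and for Fen1 WT 1 and WT 3 lie above the KO libraries.

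The number of genes at an unadjusted p under 0.05 depended on single libraries. It was 1 of the 35 without WT 2, without WT 4 or without KO 4, 2 without KO 3 or without KO 5, 3 without WT 1, and 4 or 5 in the other 3 fits. Without WT 1 and WT 4 together, the libraries highest in milk protein transcripts, it was 1. The median log2 fold change of the 35 was 0.089 without KO 4, 0.12 without WT 4 and 0.26 without WT 3. Without WT 1 and WT 4 together that median was 0.10. None of the 35 genes was called in any of the 20 alternatives, where the smallest adjusted p was 0.343.

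Of the other genes of the pathway, none of 86 was called. Their lists were drawn up by function, with earlier results of these data known. At an unadjusted p under 0.05 there were 11 with a higher mean in KO and 1 with a lower mean. Of all genes tested the shares were 3.36% higher and 4.59% lower. The median log2 fold change of the 86 was 0.11, with 61 above 0. Every KO library was above every WT library for 3 of the 86 and below for 1, against 1.44% and 1.26% of all genes tested. The genes named below from each list had its 3 smallest p-values. The checkpoint kinase gene Chek1, which restrains origin firing when forks stall, had the smallest p. It stood at 8.37, 6.06, 7.81 and 6.27 CPM in WT and 11.6, 11.4, 15.8, 12.5 and 8.72 CPM in KO, with every KO library above every WT library. The log2 fold change was 0.75 ± 0.21 (SE; edgeR unadjusted p = 0.00419, adjusted p = 0.494). Its checkpoint partners Atrip and Hus1 had log2 fold changes of 0.12 each.

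Firing factors and further polymerase subunits included other genes with positive differences. Ticrr, Mtbp and Recql4, needed to activate the helicase at origins, had log2 fold changes of 0.57 ± 0.20, 0.39 ± 0.13 and 0.70 ± 0.27 (SE; edgeR adjusted p = 0.616 for each). For Mtbp every KO library, at 23.6 to 29.1 CPM, was above every WT library, at 18.2 to 22.3 CPM. Of the polymerase alpha genes, Pola2 did not overlap between groups either, at 21.04 to 23.5 CPM in WT and 24.0 to 31.8 CPM in KO, and Pola1 had a log2 fold change of 0.44 ± 0.18 (SE). For Prim2, the large primase subunit, it was 0.24 ± 0.15. At the fork, the checkpoint mediator Clspn, the clamp-loader subunit Chtf18 and Wdhd1 had log2 fold changes of 0.64 ± 0.21, 0.66 ± 0.27 and 0.58 ± 0.25 (SE; edgeR adjusted p = 0.616 for each). WT and KO libraries overlapped for these fork genes, and for Ticrr, Recql4, Pola1 and Prim2.

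Of 12 further nucleotide synthesis genes 8 were below 0, with a median of -0.12 and none at an unadjusted p under 0.05. The lowest p values there were for Rrm2b, Impdh2 and Paics, with log2 fold changes of -0.25, -0.18 and -0.21. Among the RB, E2F and CDK2 regulators 12 of 19 were above 0, with a median of 0.068. In this group the retinoblastoma gene Rb1 (chromosome 14, 73183673 to 73325822), which holds E2F factors in check, had every KO library below every WT library. Its levels were 433, 313, 300 and 407 CPM in WT and 294, 257, 285, 224 and 262 CPM in KO. Rb1 had a log2 fold change of -0.46 ± 0.15 (SE; edgeR unadjusted p = 0.00899, adjusted p = 0.613). Cdkn1a, the CDK inhibitor p21, had 0.58 ± 0.24, with KO values of 15.9 to 41.7 CPM that overlapped WT at 15.8 to 22.2 CPM. Cks1b, a CDK subunit, had -0.28 ± 0.17. Replication-coupled chromatin genes other than those listed had a median of 0.001, with Nasp at 0.13 and Rbbp4 at -0.078.

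Genes of mitosis and G2/M varied over the libraries in a similar order, with a wider spread. The mean log2 CPM of 28 of them was 4.48, 3.54, 4.55 and 3.82 in WT 1 to WT 4 and 4.04, 4.23, 4.78, 4.69 and 4.30 in KO 1 to KO 5. WT 2 and WT 4 were the lowest for both groups of genes, and KO 3 and KO 4 the highest. The range within WT was 1.01 for the mitosis genes and 0.42 for the replication genes. Of the 28, 23 had a log2 fold change above 0, with a median of 0.32, and none was called. At an unadjusted p under 0.05 there was 1, with a higher mean in KO, where 3.36% of all genes tested had such a p and direction. That gene was Mybl2, an activator of late cell-cycle genes, at 0.52 ± 0.23 (SE; edgeR adjusted p = 0.616), with Foxm1 at 0.44 ± 0.20 and Kif23 at 0.57 ± 0.28. Mki67, the proliferation marker chosen here after its values were seen, spanned 152 to 369 CPM within WT and 255 to 563 CPM within KO. Its log2 fold change was 0.55 ± 0.32 (SE; edgeR adjusted p = 0.680).

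**Figure D4:**
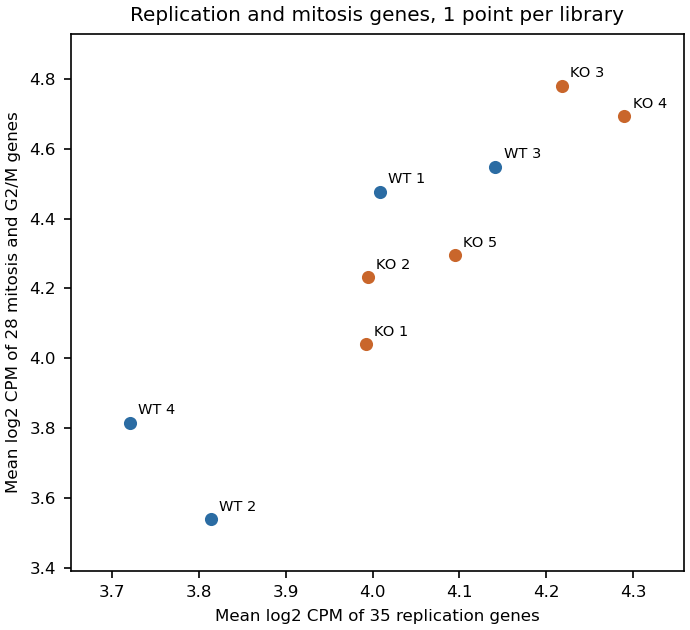
Mean log2 CPM of 28 mitosis and G2/M genes (y axis) against that of 35 replication genes (x axis), 1 point per library, WT in blue and KO in orange. WT 2 and WT 4 lie at the lower left and KO 3 and KO 4 at the upper right, with WT 1 and WT 3 among the KO libraries.

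Replication genes also divided by base composition from library to library. The GC content of the longest annotated transcript ran from 36.3% for Ccne2 to 61.0% for Pold1, with a median of 50.1%, against 49.1% over all genes tested. The 17 genes above that median stood higher, relative to the other 18, by 0.53 and 0.56 log2 units in WT 2 and WT 4 but by 0.14 in WT 1 and 0.060 in KO 3. In the remaining libraries the gap was 0.30 to 0.51. All genes tested, divided at the same GC content, moved alike, with 0.28 and 0.30 in WT 2 and WT 4 and -0.19 and -0.35 in WT 1 and KO 3. Between genotypes the GC-richer and GC-poorer genes had median log2 fold changes of 0.21 and 0.17. With each library corrected for exon length and GC content, the median of the 35 was 0.18, 31 lay above 0, and 3 had an unadjusted p under 0.05.

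**Figure D5:**
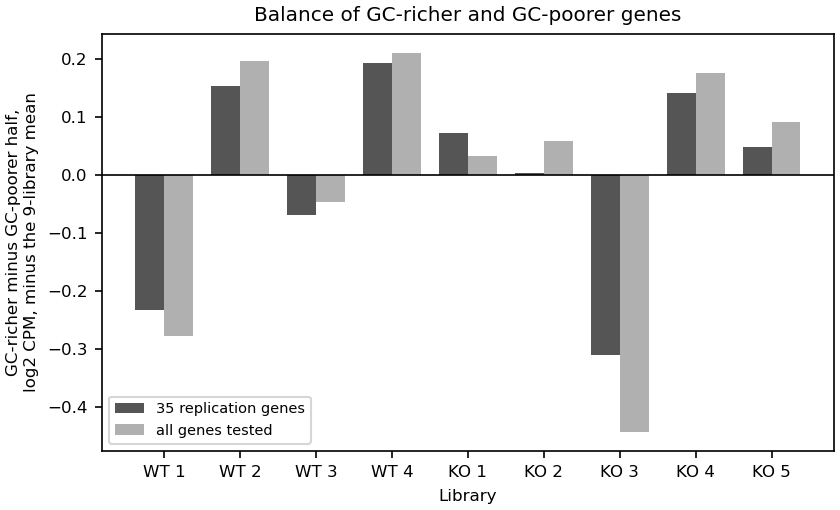
Difference in mean log2 CPM between GC-richer and GC-poorer genes in each library (x axis), minus its mean over the 9 libraries, for the 35 replication genes (dark bars) and all genes tested (light bars), divided at the replication genes' median GC. WT 1 and KO 3 are the most negative in both sets, and WT 2 and WT 4 the most positive.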

How the data were processed

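Total RNA of dissociated mammary tumors was sequenced after ribosomal RNA depletion with a stranded kit, per the labels' protocols. The authors deposited raw counts, whole numbers of fragments for each gene in each library. STAR 2.5.4a, Trimmomatic 0.36, FastQC 0.11.5 and the build GRCm38 are named, in no order, per the submitters' processing notes. No source used here states the annotation release or whether counting used strand. Entries that name no gene stayed out of library sizes and tests: 11.0% to 27.1% of fragments were unmapped, 5.50% to 9.53% multimapped, 34.0% to 50.4% without an annotated feature and 0.971% to 1.23% ambiguous.

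Symbols, positions and exon lengths came from GENCODE M21 (GRCm38), which matched 55141 of 55401 identifiers. KO and WT were compared with edgeR 4.0.16 in R 4.3.3 (TMM, filterByExpr, quasi-likelihood test, genotype only), adjusted by Benjamini-Hochberg over all genes tested, two-sided, threshold 0.05. SEs are the log2 fold change over the square root of F. List levels are means of log2 CPM with a prior count of 2. The tests were checked on simulated data. The genes, lists and most alternatives were chosen with earlier results of these data known. The rule for named genes was all 35 genes, Hspa1a and Hspa1b, and the 3 smallest p-values of each further list. Alternatives were other scaling, DESeq2 1.42.0, limma 3.58.1 (voom with sample weights), other count filters, age, a block by library number, libraries left out and, added after seeing the data, a correction for exon length and GC content.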

Additional observations from a re-analysis of the deposited data

Results flagged for a closer look

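In 3 of 70 checks of a replication gene within one genotype, a single library lay far from the others, where chance flags about 1 in 20. Prim1 stood at 22.3 CPM in KO 3, against 14.3 to 15.4 CPM in the other KO libraries. Rrm1 stood at 80.0 CPM in KO 3, against 48.1 to 52.0 CPM. Chaf1b stood at 15.2 CPM in KO 4, against 8.38 to 10.2 CPM.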

How the results depend on the processing

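The 13 genes called over the whole table became 68 with DESeq2, 29 without a count filter, 6 when a mean count of 50 or more was required, and 6 to 13 when 1 library was left out. The 5 replication genes at an unadjusted p under 0.05 became 1 with limma-voom, 2 at a mean count of at least 50, 2 with age as a covariate, 1 without WT 1 and WT 4, 3 with the exon length and GC correction, and 1 to 5 when 1 library was left out. Their median log2 fold change was 0.074 to 0.26 over all 20 alternatives, 0.089 to 0.26 with 1 library left out, and was never negative. Of the 35 genes, 19 were positive in every alternative that kept them, 1 was negative in all, and 15 changed sign in at least 1. The mean count of at least 50 kept 26 of the 35. With library number as a replicate block over libraries 1 to 4, 9 genes were called, none of the 35, and 4 of the 35 had an unadjusted p under 0.05 (median 0.21). Same-numbered libraries correlated at -0.024, 0.383, 0.111 and 0.377 in their deviations from the group means, and 3 of the 4 WT libraries correlated best with the KO library of the same number. Since 1 pair was not above 0.1, the numbers were not taken as pairs. Counts of 7 to 554 per gene and library limit the precision, and the part of depth in the spread between libraries was not tested. The causes of these changes were not tested.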
